A study of Homo sapiens with 4 samples.

Results

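Alternatively activated macrophages made with interleukin-4 (M2a) were compared with those made with interleukin-10 (M2c). Both came from the human cell line THP-1, established from an acute monocytic leukaemia, whose cells can be turned into macrophages. Each state was measured on 1 Illumina BeadChip array of total RNA, beside 1 array of the unpolarised M0 macrophages from which both were made and 1 of M1 macrophages made with interferon-gamma and lipopolysaccharide. M2a cells had been given IL-4 and M2c cells IL-10, while the steps from THP-1 to M0 were shared by both. The sources used here give no doses or exposure times, and all cells derive from 1 tumour line grown in culture. The comparison covered every gene that the array annotation names and that passed a detection p-value below 0.01 on the M2a or the M2c array. That p-value is the share of blank control beads at least as bright as the probe. Of 20045 annotated genes, 9626 met this rule, against 10414 detected on any of the 4 arrays. Of the 9626 genes, 8451 were detected on both arrays, 680 on the M2a array alone and 495 on the M2c array alone. At the threshold, 126 genes had a best detection p of 0.00909 and 64 genes just outside had 0.01039.

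IL-4 binds a receptor that activates the transcription factor STAT6, which binds short mirrored DNA sites spaced by a few bases and switches on genes for lipid-modifying enzymes, lectins, IgE receptors and chemokines that attract eosinophils and type 2 T cells. IL-10 binds another receptor, acts mainly through STAT3, and dampens inflammatory gene expression while raising scavenger receptors and complement components. Both states are grouped as M2, or alternative, macrophages, set against the M1 state. M2c cells are usually described by high CD163 and MARCO, and M2a cells by transglutaminase 2, CD209 and the chemokines CCL18, CCL22 and CCL26.

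With 1 array a side there was no replicate and no test: a gene was called higher or lower on M2a by size alone, at 2-fold or more (1 on the log2 scale), and array, culture and RNA preparation cannot be told apart from the group. Where only 1 of the arrays detected a gene, its fold is a lower limit ("at least"). For the dim array this takes the gene's value or the faintest detected probe, whichever is higher. The M2a array detected 14280 of 47228 probes (30.2%) and the M2c array 13673 (29.0%), with median raw intensities of 110.4 and 110.9. Values below are normalized log2 values of 1 probe per gene unless they are called raw intensities, and they are compared between arrays, not between genes. Of 27 annotated macrophage and monocyte markers, 25 were detected on M2a and 26 on M2c. Of 23 lymphocyte markers, 2 were detected on M2a (CD4, which macrophages also express, and CD79B) and 3 on M2c, where NCAM1 joined them. Of 21 fibroblast, epithelial and endothelial markers, PECAM1 alone was detected on either array. Of 20 granulocyte and erythroid markers, 5 were detected on M2a and 4 on M2c.

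On these arrays the M2a state stood out by large gains in a small set of genes, while few of its lower genes differed by as much. At 2-fold, 464 genes were higher on M2a (4.82% of 9626), 672 were lower (6.98%), and 8490 passed neither. Of these, 142 of the higher genes were detected on M2a alone and 143 of the lower genes on M2c alone. In either direction, 1136 (11.8%) differed. The shares of 4.82% and 6.98% are the scale for each list count below, and a list near them is no result about that list. Among genes detected on both arrays, 40 were higher and 19 lower at 4-fold, 13 and 3 at 8-fold, and 5 and 0 at 16-fold. Of genes detected on 1 array, the lower limit of the fold reached 4 for 22 higher and 0 lower genes, 8 for 7 and 0, and 16 for 3 and 0. The middle of the distribution lay near 0, with a median difference of 0.02 and quartiles of -0.45 and 0.39. Over the 8451 genes detected on both arrays, M2a and M2c values had a Pearson r of 0.945, a description across genes that are no replicates. Of the changed genes, 40.8% were higher on M2a. In the authors' normalized table, which keeps the background, 178 genes were higher and 171 lower, a split of 51.0% higher. In bulk RNA, fewer cells making a transcript and less of it per cell cannot be told apart, here or in any result below.

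**Figure D1:**
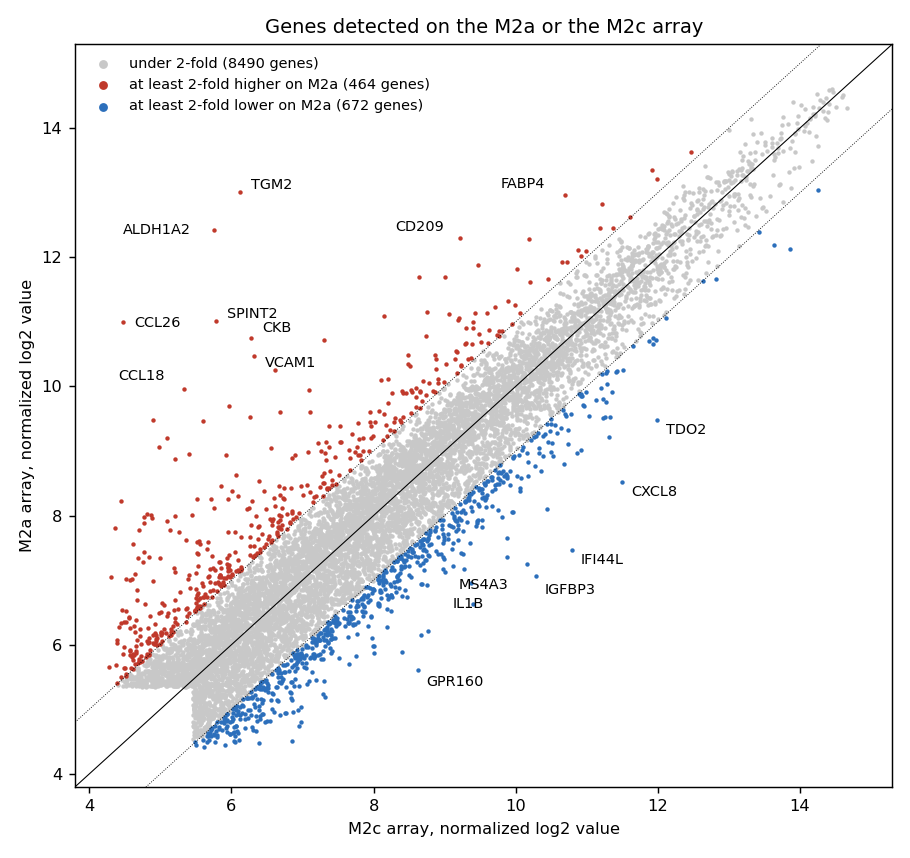
Each point is 1 of the 9626 genes detected on either array, with its normalized log2 value on the M2a array on the vertical axis and on the M2c array on the horizontal axis. The dotted lines mark 2-fold differences, with 464 genes above them and 672 below. TGM2, ALDH1A2 and CCL26 lie farthest from the diagonal.

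The IL-4 and STAT6 response genes were the group most shifted towards M2a. Of 45 genes listed, 41 were annotated and 33 detected, of which 25 were higher on M2a, 0 lower and 8 past neither, with a median log2 difference of 2.81 (2.42 with bounds). That is 75.8% of those detected, beside 4.82% of all genes. The list was drawn up with earlier results of these arrays known. Since 14 of the 33 were detected on M2a alone and could only come out higher, the 19 detected on both arrays are the fairer count: 11 were higher and 0 lower, with a median of 2.26. TGM2, the transglutaminase that cross-links proteins, had a raw intensity of 9037 on M2a and 169.3 on M2c, with 189.6 on M0. Its normalized difference of 118-fold (6.88 on the log2 scale) was the largest of the genes detected on both arrays. Its 2 other probes differed by 1.67 and 2.99 on the log2 scale, so the direction held across probes but the size did not. ALDH1A2, which makes retinoic acid from retinaldehyde, had 12.42 on M2a and 5.75 on M2c, or 102-fold, and its other probe differed by 5.23. CCL26 (eotaxin-3, an eosinophil attractant) had a raw intensity of 2306 on M2a and 100.7 on M2c, where it was not detected, and was at least 46.4-fold higher. SPINT2, a Kunitz-type serine protease inhibitor, had 11.01 on M2a and 5.78 on M2c. CD209, the lectin receptor DC-SIGN, was already well expressed on M2c at 9.22 and had 12.29 on M2a, or 8.41-fold. The clotting factor XIII A chain F13A1 (log2 difference 2.93), the neurturin co-receptor GFRA2 (3.27), the fibrinogen-like FGL2 (2.49), the lectin CLEC4A (3.72), the fatty acid carrier FABP4 (2.26) and the adenosine receptor ADORA3 (1.08) were all detected on both arrays and higher on M2a. The 15-lipoxygenase ALOX15 was at least 4.97-fold higher, the CGRP receptor partner RAMP1 at least 5.06-fold, the low-affinity IgE receptor FCER2 at least 2.94-fold, the actin-binding PALLD at least 3.07-fold and the CCR4 ligand CCL22 at least 2.11-fold. The 8 that passed neither ran from MYC (-0.61) to CTNNAL1 (0.85), named only as the ends of that range. In the authors' normalized table, 21 of the list were higher and 0 lower. PALLD, CCL22, ADORA3 and CD1E stayed under 2-fold there.

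**Figure D2:**
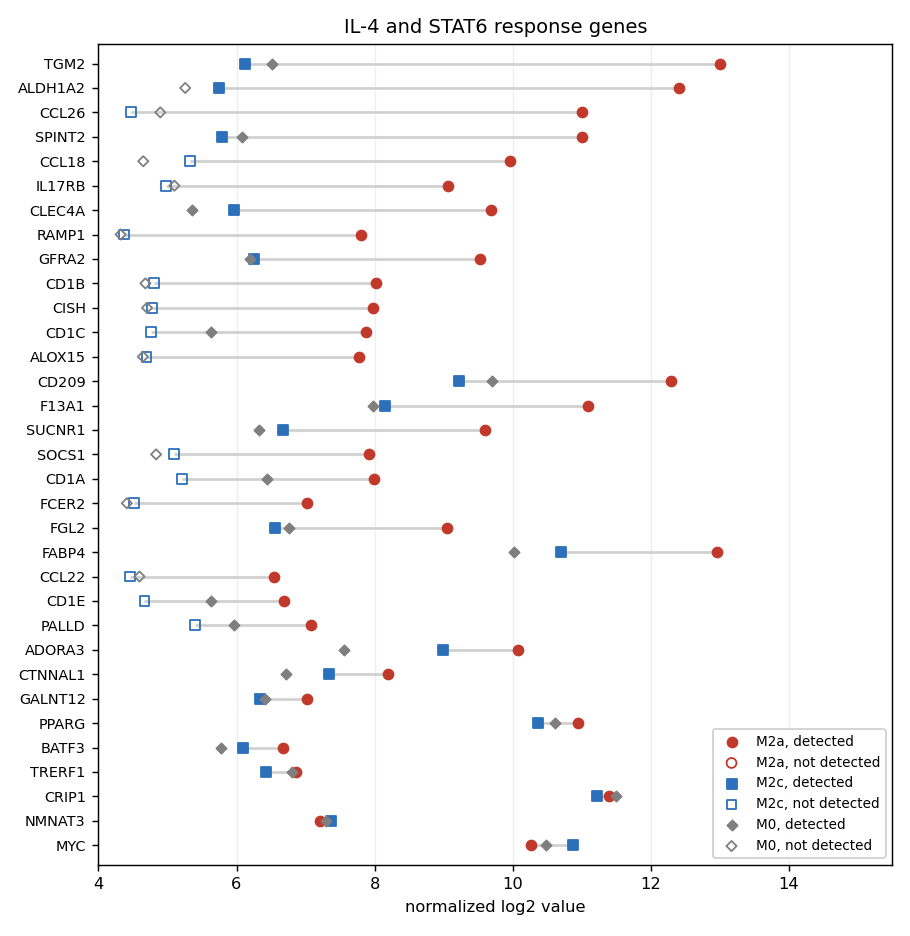
The 33 detected genes of the IL-4 and STAT6 response list, ordered by difference, with normalized log2 values on the horizontal axis for M2a (circles), M2c (squares) and M0 (diamonds). Open symbols mark arrays where the gene was not detected. From TGM2 to ADORA3 the M2a value is at least 2-fold above the M2c value, and in most of them M0 lies close to M2c.

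Among genes of cytokine signalling, 2 inhibitors were higher on M2a. CISH, a SOCS-family protein induced by STAT5 and STAT6, had 7.98 on M2a and 4.77 on M2c, where it was not detected, and was at least 5.74-fold higher. SOCS1, which blocks JAK kinases, had 7.91 on M2a and 5.10 on M2c, again undetected, and was at least 5.47-fold higher. IL17RB, a receptor chain for interleukin-25, was at least 12.1-fold higher on M2a. Of 32 detected JAK, STAT, SOCS and cytokine receptor genes, 4 were higher and 2 lower (12.5% and 6.25%, beside 4.82% and 6.98% of all genes). Their median difference was 0.05. The lower ones were the interferon receptor chain IFNAR1 (log2 difference -1.08) and SOCS4 (at least 2.23-fold lower), both under 2-fold in the authors' normalized table. None of the 24 detected on both arrays was higher.

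To show what lies before the start of these genes, 3 promoters are printed as RefSeq gives them on GRCh38.p14, 5′ to 3′ on the gene's strand, from 250 bases before to 50 after the start. Capitals mark matches to TTCNNNGAA or TTCNNNNGAA, the STAT sites with a spacing of 3 or 4, the wider of which STAT6 prefers. Both patterns read the same on either strand. They were picked because CISH had the most matches, 4 with the spacing of 3, and ALDH1A2 and SUCNR1 had 1 each with the spacing of 4. ALDH1A2 has 2 start sites in the table, and the window with the match is shown.
ALDH1A2 promoter, chr15:58013974-58014273, minus strand: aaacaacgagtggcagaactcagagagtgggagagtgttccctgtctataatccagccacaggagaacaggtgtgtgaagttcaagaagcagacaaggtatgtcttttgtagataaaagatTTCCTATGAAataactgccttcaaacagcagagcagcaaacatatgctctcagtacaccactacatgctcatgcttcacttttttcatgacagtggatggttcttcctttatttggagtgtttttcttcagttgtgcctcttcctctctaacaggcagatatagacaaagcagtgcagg
CISH promoter, chr3:50611725-50612024, minus strand: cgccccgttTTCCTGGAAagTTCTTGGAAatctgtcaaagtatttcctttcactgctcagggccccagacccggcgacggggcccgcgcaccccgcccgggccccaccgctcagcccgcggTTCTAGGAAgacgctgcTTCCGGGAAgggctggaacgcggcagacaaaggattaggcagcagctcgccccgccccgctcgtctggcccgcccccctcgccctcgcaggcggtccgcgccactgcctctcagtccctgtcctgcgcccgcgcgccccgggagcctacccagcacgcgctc
SUCNR1 promoter, chr3:151873393-151873692, plus strand: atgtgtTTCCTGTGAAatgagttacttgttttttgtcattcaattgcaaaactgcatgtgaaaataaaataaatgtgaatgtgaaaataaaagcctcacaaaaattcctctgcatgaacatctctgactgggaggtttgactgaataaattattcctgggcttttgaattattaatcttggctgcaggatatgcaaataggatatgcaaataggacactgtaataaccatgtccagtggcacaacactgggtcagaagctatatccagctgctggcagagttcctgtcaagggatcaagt
SUCNR1, the receptor for succinate, had 9.60 on M2a and 6.68 on M2c, with a log2 difference of 2.92 and of 2.50 for its other probe. The printed matches are not rare. TTCNNNNGAA occurred in the promoters of 7.80% of 27305 genes, of 8.36% of 359 genes higher on M2a and of 5.32% of 583 lower genes. TTCNNNGAA occurred in 9.38%, 8.36% and 8.92% of the same sets. Of 23 detected IL-4 and STAT6 response genes with a promoter in the table, 4 held TTCNNNNGAA and 3 held TTCNNNGAA. CCL26 held neither in its window. A match is a description of letters, not a binding site.

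Beside TGM2 and ALDH1A2, the retinoid list held 1 more higher gene and 2 lower ones. CRABP2, which carries retinoic acid to its nuclear receptors, was at least 3.68-fold higher on M2a. On the other side, the cytosolic retinaldehyde dehydrogenase ALDH1A1 had 4.93 on M2a, where it was not detected, and 6.18 on M2c, and was at least 1.78-fold lower. RARRES1, a retinoic acid responsive gene, had 6.16 on M2a and 7.36 on M2c. Of 12 detected genes of retinoid handling, 3 were higher, 2 lower and 7 past neither, with a median difference of 0.22. ALDH1A1 and RARRES1 were under 2-fold in the authors' normalized table.

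Chemokines went in both directions. Of 22 detected, 8 were higher on M2a, 5 lower and 9 past neither (36.4% and 22.7%, beside 4.82% and 6.98% of all genes). Of these, 5 were detected on M2a alone and 3 on M2c alone and could be called only one way, and the 14 detected on both arrays gave 4 higher and 3 lower, with a median of 0.12. The higher ones were led by CCL26 and by CCL18, a chemokine of alternative macrophages with a raw intensity of 1162 on M2a and 131.1 on M2c, where it was not detected, and at least 22.7-fold higher. The monocyte attractant CCL7 was at least 3.02-fold higher. The lower ones were led by CXCL8 and CXCL10. CXCL8, the neutrophil attractant interleukin-8, had 8.52 on M2a and 11.50 on M2c, a difference of -2.98 with -2.53 for its other probe. CXCL10, the interferon-induced ligand of CXCR3, had 6.64 on M2a and 9.40 on M2c. CXCL13, a B cell attractant, was at least 3.84-fold lower on M2a, where it was not detected. In the authors' table, 7 chemokines were higher and 2 lower. CX3CR1, the fractalkine receptor, had 7.62 on M2a and 9.18 on M2c, although its other probe differed by only -0.45, and the chemokine-binding receptor CCRL2 had 6.95 on M2a and 5.77 on M2c. Of 7 detected chemokine receptors these were the only ones past 2-fold, and CCRL2 was under it in the authors' table.

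Some genes for antigen display were higher on M2a. The CD1 molecules present lipid antigens to T cells, and CD1A, CD1B, CD1C and CD1E were detected on M2a and not on M2c, at least 5.76-fold, 5.90-fold, 5.35-fold and 2.34-fold higher. FCER1A, the alpha chain of the high-affinity IgE receptor, was at least 6.83-fold higher, with a raw intensity of 400.9 on M2a and 99.0 on M2c. Of 15 detected CD1 and dendritic cell markers, 10 were higher and 0 lower (66.7%, beside 4.82% higher of all genes). Their median difference was 1.36. The CD1 genes named above were detected on M2a alone and could be called only higher. They are also members of the IL-4 and STAT6 response list, so both counts include them. The 10 markers detected on both arrays gave 5 higher and 0 lower, with a median of 0.83. The costimulatory ligand CD86 had 10.67 on M2a and 9.30 on M2c, and its other probe differed by 2.05. The activation marker CD83 had 9.97 on M2a and 8.59 on M2c. Among MHC class II genes, which present peptides to helper T cells, all 11 detected were seen on both arrays. Of these, 5 were higher and 0 lower (45.5%, beside 3.81% higher of all genes detected on both). HLA-DPA1 had 8.26 on M2a and 5.95 on M2c, with 4.52 on M0, where it was not detected, and 12.07 on M1. HLA-DMB (1.75) and HLA-DMA (1.27), which load peptides, HLA-DRA (1.42) and HLA-DRB5 (1.43) followed. Probes of HLA-DRB genes can read near-identical copies, so the value of HLA-DRB5 is uncertain. MHC class I and immunoproteasome genes gave 0 higher and 0 lower of 18 detected, with a median of -0.06. By this count the shift was in class II and not in class I genes. The CD1 genes cannot be set beside them, since they passed the detection rule on M2a alone. The difference between the classes has no test here.

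Some surface receptors and costimulators were higher on M2a. Of 17 detected costimulators and checkpoint ligands, 6 were higher and 0 lower, with a median of 0.70. The 16 detected on both arrays gave 5 higher and 0 lower, beside 3.81% higher of all genes detected on both. CD52, a small lipid-anchored glycoprotein, had 11.70 on M2a and 8.64 on M2c. CD24, a ligand of SIGLEC10, had 8.94 on M2a and 5.92 on M2c, and SIGLEC10, an inhibitory sialic acid receptor, was at least 11.3-fold higher. The checkpoint ligand CD276 had 10.65 on M2a and 9.28 on M2c, with 0.69 for the difference of its other probe, and SLAMF7 was at least 2.05-fold higher. Of 13 detected C-type lectins, 4 were higher and 0 lower, but the 8 detected on both arrays gave 2 higher and a median of -0.10. Beside CLEC4A and CD209 these were CLEC1A and CLEC4G, whose bounds of 1.89-fold and 1.98-fold fell short of 2-fold. Of 19 Fc receptor genes, 4 were higher and 0 lower: FCER1A, FCER2, FCRLB (1.90) and LILRA5, whose bound was 1.65-fold. The 15 Fc receptor genes detected on both arrays gave 1 higher, FCRLB, and a median of -0.09. SLAMF7, CLEC1A, CLEC4G and LILRA5 were under 2-fold in the authors' normalized table.

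The IL-10 list did not shift as a group. Of 38 detected IL-10 and glucocorticoid-like response genes, 4 were higher on M2a, 7 lower and 27 past neither, with a median of -0.01. The lower share of 18.4% stood beside 6.98% of all genes, and the 34 detected on both arrays gave 3 higher and 5 lower. The genes lower on M2a, and so higher on M2c, included complement and scavenger genes. C1QB, a chain of the complement trigger C1q, had 9.80 on M2a and 11.12 on M2c, with 7.09 on M0. Its partner C1QA had 7.64 on M2a and 8.70 on M2c. CD163, the haemoglobin scavenger receptor, had 9.85 on M2a and 10.93 on M2c, with 10.33 on M0, and its 2 other probes differed by -1.28 and -1.22. MARCO, a scavenger receptor for bacteria, was detected on M2c alone of the 4 arrays, with a raw intensity of 119.9 on M2a and 181.9 on M2c, and was at least 1.97-fold lower on M2a. SELENOP, the selenium carrier, had 6.33 on M2a and 7.64 on M2c. TLR8, a sensor of single-stranded RNA, had 6.92 on M2a and 8.75 on M2c. CXCL13 was described above. Against the list's name, RNASE1, a secreted ribonuclease, had 10.72 on M2a and 7.30 on M2c and its other probe differed by 2.77. MS4A4A, a macrophage surface protein, had 9.39 on M2a and 7.37 on M2c, and THBS1 was detected on M2a alone with a bound of 1.17-fold. ADORA3 is also in the IL-4 list. In the authors' normalized table, 2 of the list were higher and 3 lower. C1QA, MARCO, SELENOP, CXCL13, THBS1 and ADORA3 were under 2-fold there, and CD163 differed by -0.88 with arrays scaled to a common median.

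Complement and scavenger receptors were mixed outside that list. Of 21 detected complement genes, 3 were higher and 4 lower (14.3% and 19.0%, beside 4.82% and 6.98% of all genes). ITGAM, the alpha chain of complement receptor 3 and a macrophage marker, had 12.28 on M2a and 10.18 on M2c. Properdin, CFP, which stabilises the alternative pathway, was at least 2.89-fold higher on M2a. C5 had 6.15 on M2a and 7.39 on M2c, and the C1 inhibitor SERPING1 was at least 1.74-fold lower on M2a. Of 16 scavenger receptor genes, 1 was higher and 3 were lower (6.25% and 18.75%). GAS6, a bridge to dying cells, had 10.27 on M2a and 8.87 on M2c, and its receptor AXL had 7.62 on M2a and 8.99 on M2c. CFP, C5 and SERPING1 were under 2-fold in the authors' normalized table.

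Type I interferon-stimulated genes were the largest group lower on M2a. These genes encode antiviral effectors and sensors and respond to interferon-alpha and interferon-beta. Of 56 listed, 53 were annotated and 52 detected, of which 26 were lower, 0 higher and 26 past neither, beside 6.98% of all genes lower, with a median of -1.01. Of the 52, 49 had a negative difference. Since 50 of the 52 were detected on both arrays and 25 of those were lower, the count did not rest on detection. IFI44L had 7.47 on M2a and 10.79 on M2c, with 10.04 on M0 and 10.90 on M1. That was the largest deficit of the genes detected on both arrays, at 9.96-fold, with -2.28 for its other probe. IFIT3, which binds other IFIT proteins on foreign RNA, had 6.22 on M2a and 8.76 on M2c, with -1.23 for its other probe. IFIT2 had 7.36 on M2a and 9.87 on M2c. TRIM22, an antiviral ubiquitin ligase, had 6.14 on M2a and 8.67 on M2c, and SAMD9, a restriction factor for poxviruses, differed by -2.14. On M0 these 4 genes had 8.33 (IFIT3), 9.73 (IFIT2), 8.37 (TRIM22) and 8.25 (SAMD9), nearer to M2c than to M2a. On M1 they were higher still than on M2c, at 11.41 (IFIT3), 13.17 (IFIT2), 9.87 (TRIM22) and 9.69 (SAMD9). NCOA7, which interferon also induces, had 7.65 on M2a and 9.88 on M2c. In the authors' normalized table, 18 of the list were lower and 0 higher, and the median was -0.66. With an offset of 50 the median was -0.83. Interferon-gamma targets did not shift as a group, with 2 higher and 3 lower of 21 detected and a median of -0.04. The lower ones were CXCL10, SERPING1 and the guanylate-binding protein GBP5 (-1.07, under 2-fold in the authors' table).

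**Figure D3:**
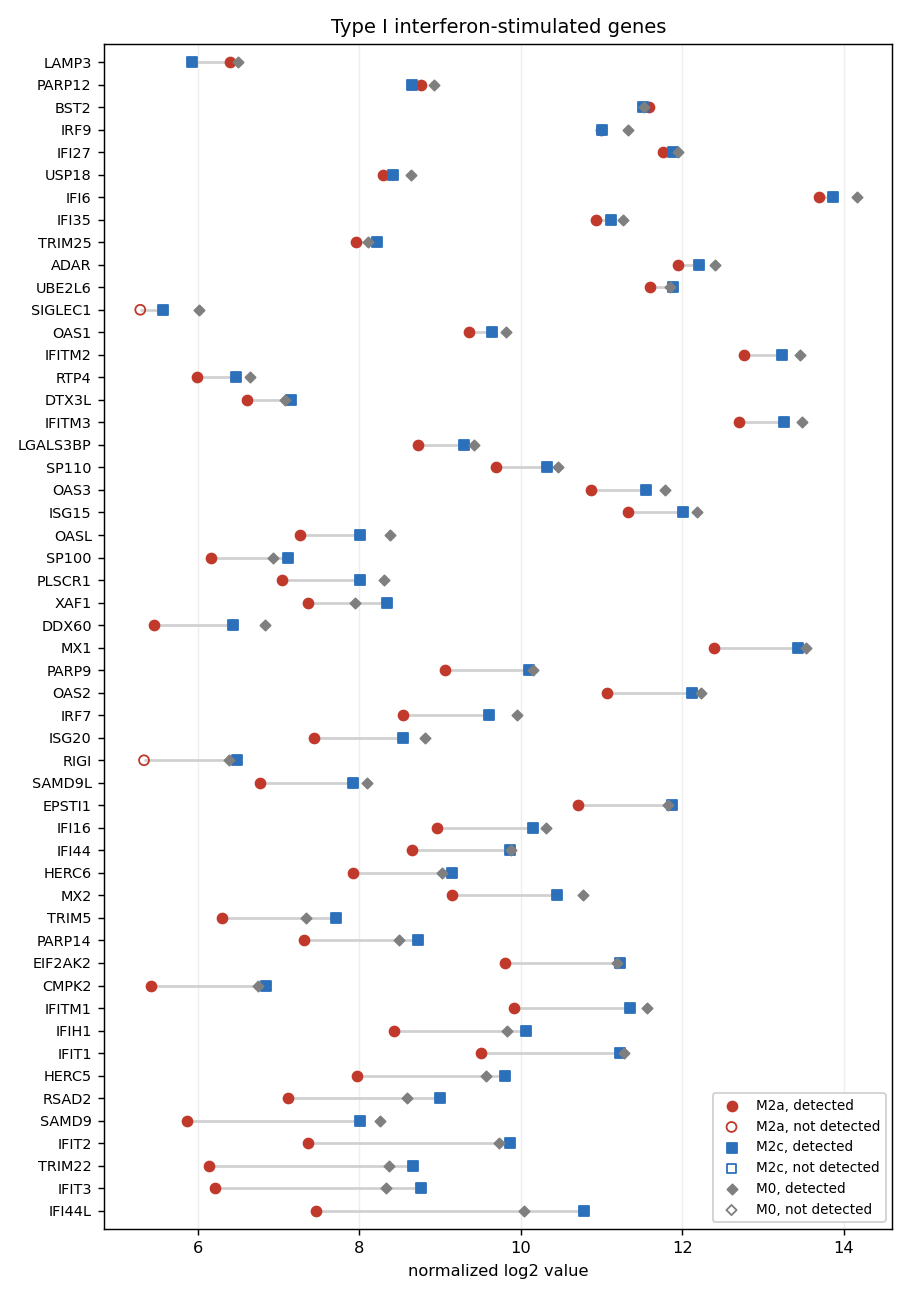
The 52 detected type I interferon-stimulated genes, with normalized log2 values on the horizontal axis for M2a (circles), M2c (squares) and M0 (diamonds), and open symbols where a gene was not detected. In 49 of them the M2a value lies left of the M2c value, and 26 of these gaps are at least 2-fold.

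The promoters of 4 of the lower genes hold letters that match the interferon response element, a site of the factor ISGF3. Here too a match is a description of letters, not a binding site. The windows are from RefSeq on GRCh38.p14, 5′ to 3′ on the gene's strand, as above. Capitals mark matches to GAAANNGAAA or its reverse complement, together with any match to the STAT sites. IFI44L, IFIT3 and IFIT1, picked for their matches, hold 2 each, and CXCL10 holds 1. Not printed are the promoters of IFIH1 and HERC5, which hold 3 each with overlapping matches counted. Both IFI44L matches lie in copies of the same repeated stretch. IFIT3 has 2 windows in the table, and the one with more matches is shown. Its last capitals are a match to TTCNNNNGAA.
IFI44L promoter, chr1:78620198-78620497, plus strand: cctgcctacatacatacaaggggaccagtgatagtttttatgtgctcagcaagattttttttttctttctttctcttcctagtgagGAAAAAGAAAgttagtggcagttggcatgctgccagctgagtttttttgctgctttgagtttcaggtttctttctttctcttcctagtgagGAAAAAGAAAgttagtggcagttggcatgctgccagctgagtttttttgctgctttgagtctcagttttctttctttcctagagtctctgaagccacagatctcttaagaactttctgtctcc
IFIT3 promoter, chr10:89327747-89328046, plus strand: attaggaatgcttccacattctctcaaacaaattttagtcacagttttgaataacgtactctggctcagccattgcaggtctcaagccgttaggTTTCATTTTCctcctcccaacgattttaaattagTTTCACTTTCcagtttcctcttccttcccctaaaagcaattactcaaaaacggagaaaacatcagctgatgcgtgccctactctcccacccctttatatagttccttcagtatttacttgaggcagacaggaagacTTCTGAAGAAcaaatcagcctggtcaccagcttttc
IFIT1 promoter, chr10:89392373-89392672, plus strand: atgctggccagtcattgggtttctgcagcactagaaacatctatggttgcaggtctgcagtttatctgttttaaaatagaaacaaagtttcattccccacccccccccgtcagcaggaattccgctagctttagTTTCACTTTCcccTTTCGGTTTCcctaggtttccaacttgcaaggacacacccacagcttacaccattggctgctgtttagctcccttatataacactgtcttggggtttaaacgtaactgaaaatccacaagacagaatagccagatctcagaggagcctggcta
CXCL10 promoter, chr4:76023448-76023747, minus strand: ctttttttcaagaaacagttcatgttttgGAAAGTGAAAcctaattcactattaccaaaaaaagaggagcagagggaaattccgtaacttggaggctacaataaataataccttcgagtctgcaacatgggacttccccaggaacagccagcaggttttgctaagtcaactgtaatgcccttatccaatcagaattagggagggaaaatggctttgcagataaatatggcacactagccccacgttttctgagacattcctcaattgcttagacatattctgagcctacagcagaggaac
IFIT1, which binds viral RNA lacking a host cap mark and was shown for its promoter after its value was seen, had a raw intensity of 864.2 on M2a and 2595.8 on M2c. A match to the element was in the promoters of 4.38% of 27305 genes and of 4.08% of all 7912 detected genes with a promoter. It was in those of 7.89% of 583 genes lower on M2a and of 3.90% of 359 higher genes. Within the type I interferon list 28 of 42 held it (66.7%), which was 16 of the 21 lower members and 12 of the 21 that passed neither. Without this list, 30 of 562 lower genes held it (5.34%). The genes of the list were chosen for their interferon response, so their match count is a property of the list.

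Inflammatory genes differed in both directions. Among these lists, both the cytokines and LPS-type mediators and the Toll-like receptor and inflammasome genes leaned lower. IL1B, the pro-inflammatory cytokine interleukin-1 beta, had 6.96 on M2a and 9.37 on M2c, with 8.40 on M0 and 14.03 on M1. Its natural antagonist IL1RN had 11.15 on M2a and 8.76 on M2c, and its other probe differed by 2.43. TNFSF10, the death ligand TRAIL, was at least 2.83-fold lower on M2a, where it was not detected. PTGS2, the inducible prostaglandin synthase, was at least 1.55-fold lower on M2a, although its other probe differed by 0.33 in the opposite direction. PTGS1, the constitutive one, had 10.78 on M2a and 8.74 on M2c, and the prostaglandin E2 receptor PTGER4 had 9.56 on M2a and 10.78 on M2c. Of 11 detected cytokines and LPS-type mediators, 1 was higher and 3 were lower (9.09% and 27.3%, beside 4.82% and 6.98% of all genes). Of the 11, 9 were below 0, and the median was -0.57. The 9 detected on both arrays gave 1 higher and 1 lower, with a median of -0.40. Of 21 Toll-like receptor and inflammasome genes, 0 were higher and 4 lower (19.0%, beside 6.98% of all genes), with a median of -0.38. The 19 detected on both arrays gave 3 lower. TLR7, another sensor of single-stranded RNA, was at least 3.07-fold lower. CASP1, the protease that matures interleukin-1 beta, had 8.15 on M2a and 9.67 on M2c, and the DNA sensor AIM2 had 5.58 on M2a and 7.13 on M2c. Of 21 NF-kappaB components and feedback genes, 2 were higher and 1 lower (9.52% and 4.76%, beside 4.82% and 6.98% of all genes). The lower one was the nuclear inhibitor NFKBIZ, with 6.94 on M2a and 8.67 on M2c. TLR7, AIM2 and PTGS2 were under 2-fold in the authors' normalized table.

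Immature myeloid and granule genes were lower on M2a. Of 13 detected, 7 were lower, 1 higher and 5 past neither (53.8% lower, beside 6.98% of all genes), with a median of -1.02. MS4A3, a marker of granulocyte-monocyte progenitors, had 7.25 on M2a and 10.16 on M2c, with 7.56 on M0, so that M2c stood apart from M2a and M0. Its 2 other probes differed by -2.82 and -1.05. MYB, the progenitor transcription factor, had 9.22 on M2a and 11.32 on M2c, with 10.33 on M0. The eosinophil-type ribonuclease RNASE2 had 9.52 on M2a and 11.26 on M2c. Lysozyme, LYZ, had 9.02 on M2a and 10.92 on M2c, although its other probe differed by only -0.78. BPI, a bactericidal granule protein, was at least 2.09-fold higher on M2a and under 2-fold in the authors' normalized table. Beside these, the summed raw intensity of the 20 granulocyte and erythroid markers was 8126 on M2a and 12223 on M2c. By gene they leaned the other way. Of 5 detected, 0 were higher, 0 lower, 3 above 0 and 2 below 0, with a median of 0.44. The part of these markers in the result was not tested.

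Cell cycle genes lay slightly lower on M2a. Of 55 detected, 7 were lower and 0 higher (12.7%, beside 6.98%), 45 had a negative difference, and the median was -0.28. TOP2A, the topoisomerase of dividing cells, had 8.58 on M2a and 10.08 on M2c, with 9.98 on M0. The phosphatase CDKN3 had 7.26 on M2a and 8.70 on M2c, and the spindle checkpoint gene MAD2L1 had 7.88 on M2a and 9.45 on M2c, with only -0.58 for its other probe. The checkpoint kinase TTK differed by -1.26 and the kinetochore protein CENPF was at least 3.09-fold lower. TTK and CENPF were under 2-fold in the authors' normalized table, where 3 of the list were lower. Of 30 chaperone and stress genes, 0 were higher and 4 lower, namely DNAJB9 (-1.41), DDIT3 (-1.23), VLDLR (-1.12) and HSP90B1 (-1.01), and in the authors' table DNAJB9 alone stayed lower.

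Lipid genes differed in both directions, with 22 of 31 above 0. LPL, the lipase that releases fatty acids from lipoproteins, had a raw intensity of 3728 on M2a and 682.4 on M2c. LIPA, the lysosomal acid lipase, had 13.63 on M2a and 12.47 on M2c. PDK4, a brake on pyruvate oxidation, was at least 2.05-fold lower on M2a. Of 31 detected genes of lipid uptake and PPAR and LXR targets, 5 were higher, 3 lower and 23 past neither. That is 16.1% higher and 9.68% lower, beside 4.82% and 6.98% of all genes, with a median of 0.45. In the authors' table, 3 were higher and 0 lower. The cholesterol synthesis list gave 0 higher and 0 lower of 21. Of 36 lysosomal protease and proton pump genes, 4 were higher and 0 lower: CTSC, an activator of serine proteases, the cholesterol exporter of lysosomes NPC1, CTSZ and HEXA. CTSC had 13.35 on M2a and 11.91 on M2c, with its 3 other probes differing by 2.01 to 3.23, NPC1 had 10.90 on M2a and 9.30 on M2c, CTSZ differed by 1.21, and HEXA by 1.03, under 2-fold in the authors' table.

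Several metabolic enzymes differed. CKB, the brain-type creatine kinase, had 10.75 on M2a and 6.28 on M2c, with 5.93 on M0 and 13.34 on M1. Of 27 detected glycolysis and pentose phosphate genes, 5 were higher and 0 lower (18.5%, beside 4.82% higher of all genes), with a median of 0.37. Hexokinase 3, HK3, had 8.09 on M2a and 6.21 on M2c, the phosphofructokinase PFKP had 11.06 on M2a and 9.20 on M2c, and PFKFB4, which sets the level of its activator, had 10.54 on M2a and 9.17 on M2c. FBP1, which runs the opposite step, differed by 1.46 and the aldolase ALDOC by 1.14, and both were under 2-fold in the authors' normalized table. TDO2, which starts tryptophan breakdown, had 9.48 on M2a and 11.98 on M2c, with -2.55 for its other probe. KYNU, a later enzyme of the same pathway, had 9.76 on M2a and 11.27 on M2c. SAT1, which acetylates polyamines, had 10.04 on M2a and 11.28 on M2c. Of 14 detected tryptophan, arginine and polyamine genes, 1 was higher and these 3 were lower. Oxidative phosphorylation genes gave 0 higher and 0 lower of 31, but 27 of them were above 0, with a median of 0.31. With arrays scaled to a common median 3 of them passed 2-fold. With the median of genes of similar locus length taken from each gene, their median was 0.17.

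Iron genes were mixed. Hepcidin, HAMP, a hormone that triggers the degradation of the iron exporter ferroportin, had 7.75 on M2a and 5.95 on M2c. Ferroportin itself, SLC40A1, was at least 1.60-fold lower on M2a, where it was not detected. The haem exporter FLVCR1 (1.37), the biliverdin reductase BLVRB (1.27) and the haem transporter SLC48A1 (1.20) were higher. Of 17 detected haem and iron genes, 4 were higher and 2 lower (23.5% and 11.8%, beside 4.82% and 6.98% of all genes). FLVCR1, SLC48A1 and SLC40A1 were under 2-fold in the authors' normalized table. Among 11 metallothionein and zinc transporter genes, all detected on both arrays, 9 were below 0, with a median of -0.58. At 2-fold, 0 were higher and 1 was lower, MT1G, with 8.67 on M2a and 9.77 on M2c and under 2-fold in the authors' table. Metallothionein probes can read near-identical copies, so their values are uncertain.

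Adhesion, matrix and protease genes differed in both directions. VCAM1, an adhesion molecule for lymphocytes, had 10.46 on M2a and 6.32 on M2c, with 12.07 on M1 and 4.64 on M0, where it was not detected. Its 2 other probes differed by 1.17 and 3.41. ICAM1 had 9.20 on M2a and 7.84 on M2c, and the integrins ITGA3 (1.33) and ITGAX (1.08), both under 2-fold in the authors' table, were also higher. Of 24 detected adhesion genes, 5 were higher and 2 lower (20.8% and 8.33%, beside 4.82% and 6.98% of all genes). Of 23 detected matrix and growth factor binding genes, 6 were higher and 3 lower. IGFBP5, a binding protein of insulin-like growth factors, was at least 16.1-fold higher on M2a, while IGFBP3, of the same family, had 7.06 on M2a and 10.29 on M2c, with 10.88 on M0. The collagens COL22A1 (2.04), COL4A1 (1.54) and COL6A2 (1.53) were higher. Of 29 metalloproteinases, serpins and inhibitors, 8 were higher and 2 lower (27.6% and 6.90%), or 5 and 1 of the 24 detected on both arrays. MMP12, the macrophage elastase, had 8.25 on M2a and 5.51 on M2c, and matrilysin, MMP7, was at least 5.64-fold higher. The urokinase PLAU differed by 1.84, and MMP8 had a bound of 1.94-fold and was under 2-fold in the authors' table.

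**Figure D4:**
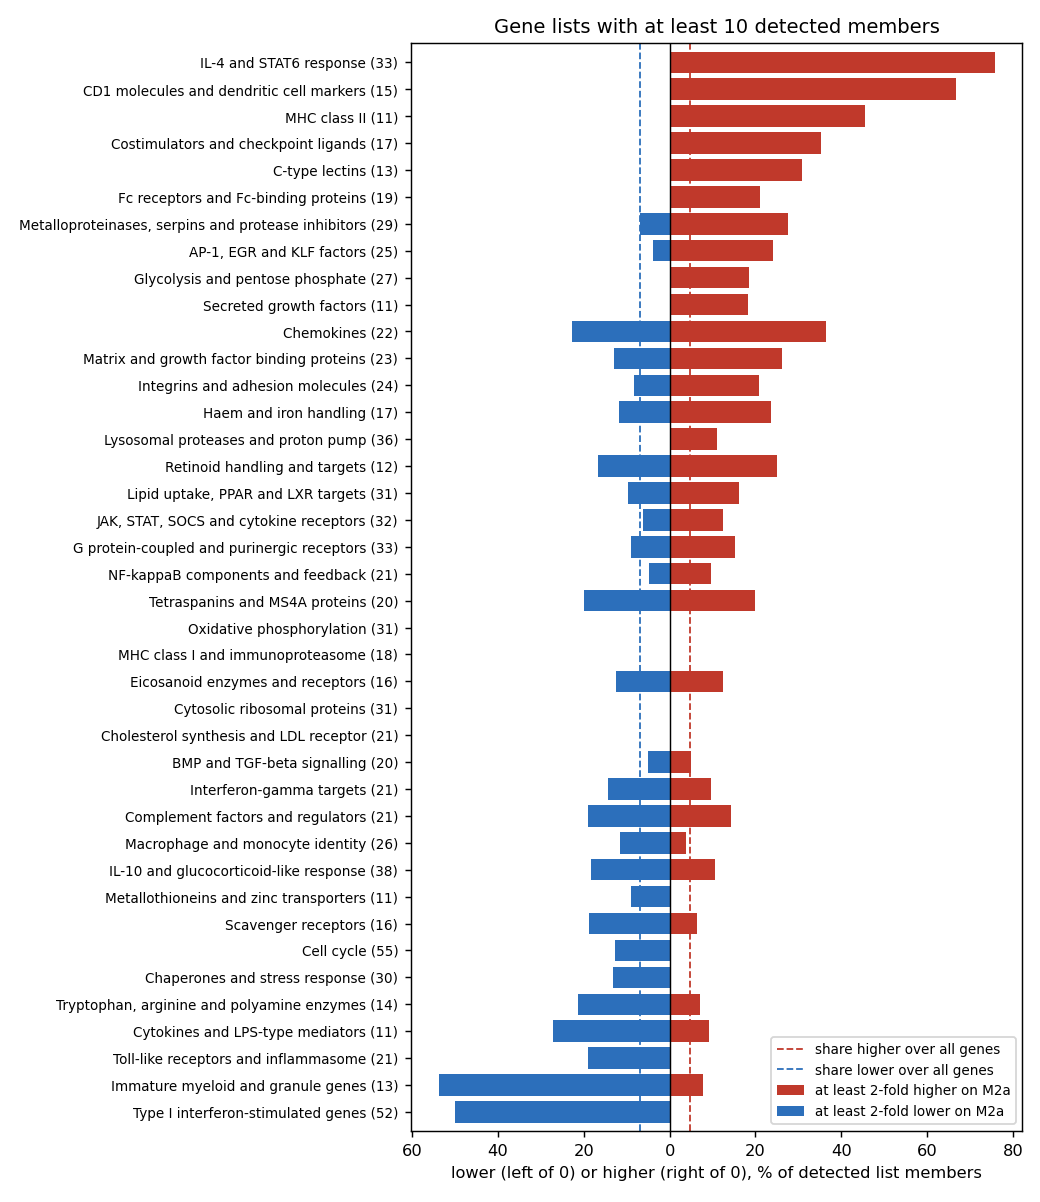
Gene lists with at least 10 detected members, the number in brackets. Red bars give the percentage of detected members at least 2-fold higher on M2a and blue bars, drawn to the left, the percentage at least 2-fold lower, with the percentages over all genes, 4.82 and 6.98, as dashed lines. The IL-4 list stands at the top and the type I interferon list at the bottom.

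Growth factors and transcription factors added a few members. TGFA, a ligand of the EGF receptor, was at least 3.12-fold higher on M2a, and the stress cytokine GDF15 had 9.89 on M2a and 8.25 on M2c. Of 25 detected AP-1, EGR and KLF genes, 6 were higher and 1 lower (24% and 4%, beside 4.82% and 6.98% of all genes). ATF3 (1.71), the phosphatase DUSP5 (1.54), JUN (1.28) and MAF (1.20) were higher, but the other probe of MAF differed by -0.55. FOS had 7.17 on M2a and 8.98 on M2c, so that JUN and FOS went opposite ways. Of 20 BMP and TGF-beta genes, BMP2 (1.06) was higher and SMAD5 (-1.10) lower, and neither passed 2-fold in the authors' normalized table. That is 5% each way, near the shares of all genes. Of 33 detected G protein-coupled and purinergic receptors, 5 were higher and 3 lower (15.2% and 9.09%). The platelet-activating factor receptor PTAFR was at least 3.73-fold higher. GPR160, an orphan receptor, had 5.61 on M2a and 8.62 on M2c, with 7.40 on M0, and FFAR2, a receptor for short-chain fatty acids, had a bound of 1.47-fold lower and was under 2-fold in the authors' table. Of 20 tetraspanin and MS4A genes, 4 were higher and 4 lower (20% each). TSPAN7 had 9.47 on M2a and 5.60 on M2c, with 3.13 for its other probe. MS4A7 had 8.80 on M2a and 10.68 on M2c, and MS4A14 was at least 1.63-fold lower and under 2-fold in the authors' table.

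The named genes outside these groups were single cases. Among genes detected on both arrays, PYROXD2 had 10.25 on M2a and 6.62 on M2c. DCSTAMP, which drives macrophage fusion, had 9.94 on M2a and 7.09 on M2c. The nucleoside transporter SLC29A3 differed by 2.61 and SPOCD1 by 2.56. Lower on M2a were CAV1, the coat protein of caveolae, with 5.88 on M2a and 8.41 on M2c, the anthrax toxin receptor ANTXR1, with 8.11 on M2a and 10.44 on M2c, and the G protein regulator RGS1, with 7.17 on M2a and 9.27 on M2c. The other probe of CAV1 differed by only -0.38, and those of ANTXR1 by -1.05 and -0.66. FAM117B (-2.02), the stress kinase MAP3K20 (-2.01) and the transcription factor OLIG1 (-1.94) completed the 20 largest deficits. Of genes detected on M2a alone, the water and glycerol channel AQP9 was at least 13.3-fold higher, CCDC85A at least 10.6-fold, the non-coding RNA DGCR5 at least 5.84-fold and the synaptotagmin SYT4 at least 5.82-fold. The other probe of CCDC85A differed by 1.32. Of genes detected on M2c alone, LGI2 was at least 3.91-fold lower on M2a, GLIS3 at least 3.03-fold, ZNG1A at least 2.86-fold, the DNA helicase BLM at least 2.82-fold, the lysophosphatidic acid receptor LPAR6 at least 2.82-fold, MYNN at least 2.81-fold and SHLD2 at least 2.77-fold. The GABA receptor subunit GABBR2 had a raw intensity of 118.4 on M2a, where it was not detected, and 234.2 on M2c. Of these 8, LGI2 alone stayed past 2-fold in the authors' normalized table, and the other probe of ZNG1A differed by 0.24 in the opposite direction.

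Housekeeping lists gave a scale for the rest. Cytosolic ribosomal protein genes were 0 higher and 0 lower of 31, with a median of -0.01 that became 0.31 with arrays scaled to a common median, so their sign depends on the scaling. That scaling moved the median of all genes to 0.07. Smaller lists are given by their ends. In the eicosanoid list 2 of 16 were higher and 2 lower. Of 3 detected acute phase genes, ORM1 was lower, with a bound of 1.46-fold. In the identity lists, CD79B (1.38) was higher and ADGRE1, a macrophage adhesion receptor, was at least 1.76-fold lower. ORM1, CD79B and ADGRE1 were under 2-fold in the authors' normalized table.

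The M0 array took no part in the contrast, and its values were set beside those of M2a and M2c. M0 was nearer to M2c than to M2a in 420 of the 464 higher genes (90.5%) and in 603 of the 672 lower genes (89.7%), beside 5503 of the 8490 genes past neither (64.8%). Genes such as C1QB, MS4A3 and CAV1, where M0 was nearer to M2a, belonged to the remaining 44 higher and 69 lower genes. In 146 of the higher and 179 of the lower genes, M0 lay above or below both M2a and M2c, as in C1QB. For those genes, nearness does not tell on which side the difference lay.

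Other probes of the same gene were the only second measurement within these arrays. Of 104 higher genes with another detected probe, 101 had the same direction in the mean of those probes (97.1%) and 61 were past 2-fold (58.7%). Of 166 lower genes, 151 had the same direction (91.0%) and 59 were past 2-fold (35.5%). Over 2223 genes with several detected probes, the median gap between the difference of the brightest and the mean of the others was 0.25. Probes of 1 gene share their array and RNA, so this is no replicate of the condition.

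The differences also followed the length of the gene's locus in the RefSeq gene table, which was looked at after the values were seen. In 5 classes of equal size from short to long, with median lengths of 4.34, 13.3, 27.3, 52.1 and 137.1 kb, the median log2 difference was 0.20, 0.13, 0.01, -0.10 and -0.20. The share lower on M2a was 3.84%, 4.78%, 6.13%, 9.72% and 10.4%, while the share higher stayed between 3.85% and 5.61%. The part of RNA quality or of labelling in this was not tested. With the median of its length class taken from each gene, 468 genes were higher and 614 lower, and the IL-4 list had 24 higher and 0 lower and the type I interferon list 0 higher and 24 lower.

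**Figure D5:**
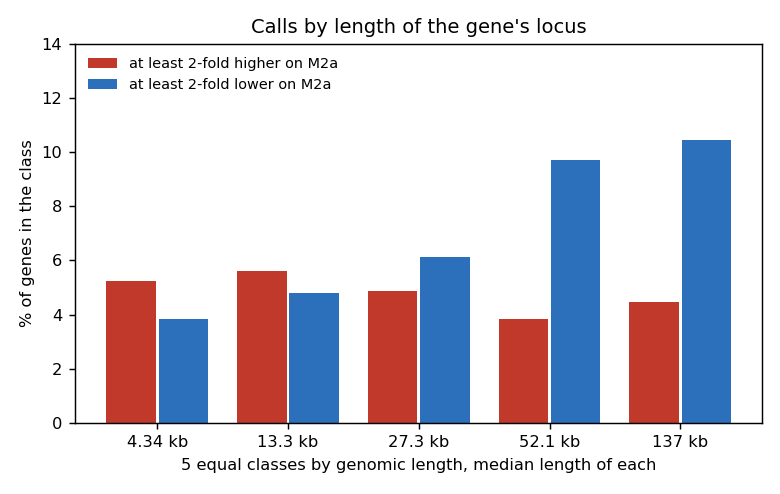
Percentage of genes at least 2-fold higher (red) or lower (blue) on M2a, in 5 equal classes by the length of the locus, with the median length of each class in kb below the bars. The blue bars climb from 3.84% in the shortest to 10.4% in the longest class, and the red bars stay between 3.85% and 5.61%.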

How the data were processed

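Total RNA of 4 THP-1 macrophage cultures (M2a, M2c, M0 and M1, 1 array each) was extracted with Trizol, labelled with biotin and measured on Illumina BeadChips, per the labels' protocols. Per the submitters' processing notes GenomeStudio was used; no version is stated. The authors deposited a non-normalized table with a linear intensity and a detection p-value for each of 47228 probes, and a normalized table, in which each array had nearly the same set of values (sorted, within 0.437% of the means of the sorted non-normalized columns). From the deposited non-normalized intensity, the background was corrected with normexp from the detection p-values (neqc of limma 3.58.1 in R 4.3.3, offset of 16), the 4 arrays were quantile-normalized and log2 values were taken. The offset shrinks differences of dim probes. Tables were handled in Python 3.11.15 with pandas 2.3.3 and numpy 2.4.6.

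Probes with exactly 1 symbol (30111) were named from the platform annotation, and 30072 of these symbols were updated by Entrez identifier. A gene was represented by its detected probe with the highest mean of M2a and M2c. Differences are M2a minus M2c. Promoters come from RefSeq, and for a gene with several windows a match in any of them was counted. The number of arrays limits the precision, and no array has a replicate. The procedure was tested on simulated data.

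The genes compared, the 45 gene lists (1236 genes, some in several lists) and the rule for named genes were chosen with earlier results of these data known. Named were the 20 largest differences in each direction among genes detected on both arrays, the 12 brightest genes in each direction detected on 1 array with a bound of at least 2-fold, the 5 largest changes of each list, and every changed member of the IL-4 and IL-10 lists. Alternatives to 8 choices were listed in advance and 1 more, the length of the gene, was added after seeing the data.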

Additional observations from a re-analysis of the deposited data

Results flagged for a closer look

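Of 17109 probes with no gene name here, 2976 were detected on M2a or M2c, and 109 were at least 2-fold higher and 109 lower on M2a (3.66% each). Among them, 24 probes were detected on M2a and not on M0, and lay at least 2-fold above both M2c and M0, a signal outside the named genes of the comparison. In the other direction, 4 probes were detected on M2c and not on M0, and lay at least 2-fold above both M2a and M0.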

How the results depend on the processing

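Every result rests on 1 array a side, so none has a replicate check. No paired analysis was possible because each group has 1 array. The counts of 464 genes higher and 672 lower on M2a changed most with the background: 178 higher and 171 lower in the authors' normalized table, 178 and 169 with no background correction, and 257 and 310 with an offset of 50. In these alternatives every gene counted was also among the 464 or the 672. The counts stayed within 1.5 times of the main ones with genes detected on both arrays only (322 and 529), a detection p below 0.05 (464 and 673), arrays scaled to a common median (558 and 686), the M2a and M2c arrays normalized alone (486 and 723), the mean of the detected probes of a gene (446 and 625) and the length of the gene (468 and 614). Of 174 named genes, 115 kept their call in all alternatives that gave a value, the others lost it in at least 1, and no named gene reversed. Of 90 list counts, 40 stayed within 1.5 times throughout, and of 45 list medians 41 kept their side of 2-fold, while 13 had values on both sides of 0. Dim signals set the limit: differences of genes near the background shrink by as much as the background treatment decides.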

Other observations

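A probe without a gene name, ILMN_1783593, had a raw intensity of 15477 on M2a, against 533.3 on M2c and 186.2 on M0, a log2 difference of 5.29 between M2a and M2c that only TGM2, ALDH1A2 and CCL26 exceeded among named genes. In the other direction, ILMN_2150856 had a raw intensity of 128.5 on M2a and 820.1 on M2c (-3.98). Its detection p on M2a was 0.00909, at the edge of the rule. ILMN_2150851 had 122.3 on M2a, where it was not detected, and 476.4 on M2c. Its difference of -3.24 uses that undetected value and is not a lower limit. These probes were chosen after their values were seen.

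Genes whose symbol starts with ZNF and a number, mostly zinc finger proteins, were also counted after the values were seen. Of 240 detected, 2 were higher on M2a and 32 lower (13.3%, beside 6.98% of all genes), with a median difference of -0.31. Their median locus length was 21.9 kb, beside 27.3 kb in the middle of 5 equal classes of all genes.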
